A study of Mus musculus with 9 samples.

Results

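The genes described here fold newly made proteins in the endoplasmic reticulum (ER) and prepare them for secretion: Hspa5, Hsp90b1, Dnajb9, Calr, Canx, Pdia3, Pdia4, Pdia6, Xbp1 and Mzb1. They are 10 of the 18194 genes that carry a probe set with exactly 1 gene symbol on the Affymetrix mouse arrays, and all 10 were among the 12866 genes tested. They were chosen by name, as a list of ER chaperones and their regulators. Each gene is given by its probe set of highest mean over the 9 arrays.

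The study measured RNA of FrII cells, a sorted progenitor fraction with c-Kit, with low or positive Mac1, and without lineage markers or Sca-1. Its design sets K/L leukaemic mice, which carry mutations of both Cebpa alleles, and leukaemic mice that overexpress Sox4 against C57/BL6 wild type mice. There were 3 arrays for each of these 3 groups, made from 5 ug of total RNA of mice aged 2 to 4 months. All groups carry the tissue label blood, and the extraction protocol gives a CD45.1-negative, CD45.2-positive gate for every sample. The source names and descriptions list CD45 for the leukaemic cells and not for the wild type cells, so it is unclear whether wild type cells were gated the same. How Sox4 was overexpressed, how the leukaemias were passed on or how many leukaemias the 3 arrays of a group stand for is not given in the sources used here. The descriptions name mouse 1, 2 and 3 in each group while the titles read mice, so it is not settled whether animals were pooled or leukaemias shared, and each p-value reflects only how far these samples spread, which may be technical.

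All values are log2 of the deposited intensity, and a difference of 1 on this scale is a doubling. Array medians lay between 5.43 and 5.55. The 40th percentile of an array, which a gene had to pass on at least 3 arrays to be tested, lay between 4.84 and 4.95. Replicate arrays correlated at 0.992 or more, except wild type array 3, which correlated at 0.979 and 0.977 with the other wild type arrays. The ratio of the Gapdh control probe sets at the 3′ and 5′ ends was 1.93 to 2.0 on K/L arrays, 2.22 to 2.44 on Sox4 arrays and 2.68 to 2.91 on wild type arrays, so that measure of RNA quality moved with the groups, and its part in the results was not tested. The same ratio for actin overlapped between the groups, at 0.866 to 0.913 on K/L arrays, 0.881 to 0.915 on Sox4 arrays and 0.885 to 0.976 on wild type arrays. Kit averaged 9.22 in K/L, 9.18 in Sox4 and 9.17 in wild type cells, and the groups overlapped. Ptprc, which encodes CD45, was lower in both leukaemic groups than in wild type cells, by -0.44 in K/L and -0.49 in Sox4 (limma adjusted p = 0.00476 and 0.00249). Itgam, which encodes Mac1, averaged 3.83 in K/L, 4.2 in Sox4 and 4.91 in wild type cells and was too dim to be tested.

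Proteins that are to be secreted or placed in a membrane enter the ER unfolded. There Hsp70 and Hsp90 family chaperones hold them, lectin chaperones keep glycoproteins in a folding cycle, and protein disulfide isomerases form and rearrange their disulfide bonds. When unfolded protein builds up, the unfolded protein response splices the mRNA of the transcription factor Xbp1 and activates Atf6, and both factors raise transcription of the chaperones. Immature granulocytes make large amounts of granule proteins that pass through this machinery.

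A classical ER stress response element (ERSE), through which Atf6 and Xbp1 act together with the CCAAT-binding factor NF-Y, has the letters CCAAT, then 9 bases of any kind, then CCACG. RefSeq promoter windows on GRCm38.p6, 250 bases before to 50 after the annotated start, were searched on both strands. The complete element stood in 39 of 32851 windows, or 0.119%. Of the 9 genes of the list with a window, 5 held it, which is 55.6%, against 37 of 27025 genes in all (0.137%) and 5 of 104 other genes of the folding and secretion pathway (4.81%). Mzb1 is named only. The stretches are shown because the element stood in some of the genes and not in others. The genes were chosen by name as chaperones and their regulators, and the element is known from chaperone genes. The shares are therefore a description and no independent test. Each is printed 5′ to 3′ on the strand that reads CCAAT first, and capitals mark the letters that match the fixed letters of the element.
Hspa5, chr2:34772005-34772063, strand of the gene: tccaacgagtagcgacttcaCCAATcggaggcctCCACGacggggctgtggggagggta
Hsp90b1, chr10:86705513-86705571, opposite strand: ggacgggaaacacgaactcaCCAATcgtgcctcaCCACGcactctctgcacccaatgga
Hsp90b1, chr10:86705618-86705676, strand of the gene: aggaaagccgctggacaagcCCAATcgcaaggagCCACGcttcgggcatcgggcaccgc
Calr, chr8:84847055-84847113, opposite strand: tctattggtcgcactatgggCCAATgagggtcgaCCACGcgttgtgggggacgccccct
Canx, chr11:50325780-50325838, strand of the gene: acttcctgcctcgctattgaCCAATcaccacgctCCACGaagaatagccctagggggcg
Pdia6, chr12:17266471-17266529, strand of the gene: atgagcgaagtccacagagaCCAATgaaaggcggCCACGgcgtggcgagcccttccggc
The elements began 65 bases upstream of the start in Hspa5, 107 and 212 in Hsp90b1, 162 in Calr, 145 in Canx and 98 in Pdia6.

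In 4 genes the closest stretch lacked some of the fixed letters.
Pdia3, chr2:121413853-121413901, strand of the gene: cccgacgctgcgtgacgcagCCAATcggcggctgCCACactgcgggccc
Pdia4, chr6:47813582-47813640, opposite strand: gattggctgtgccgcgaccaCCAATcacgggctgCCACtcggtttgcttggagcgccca
Dnajb9, chr12:44210152-44210210, strand of the gene: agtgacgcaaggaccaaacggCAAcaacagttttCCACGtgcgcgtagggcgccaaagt
Xbp1, chr11:5520596-5520640, opposite strand: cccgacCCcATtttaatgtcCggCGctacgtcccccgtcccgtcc
Pdia3 and Pdia4 each matched 9 of the 10 fixed letters, Dnajb9 8 and Xbp1 7. With 1 fixed letter allowed to differ, the element stood in 494 windows (1.5%) and in 7 genes of the list. The ERSE-II, which is ATTGG, 1 base of any kind and CCACG, stood in 0.0365% of windows and the UPRE, TGACGTGG, in 0.676%, and in 0 of the 9 genes. A CCAAT alone, which every complete ERSE contains, stood in 37.4% of windows and in 8 of the 9 genes. A match describes letters in this window and is no measurement of binding.

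Across the 10 genes, 1 change was large. Mzb1 was at least 8.09-fold higher in K/L cells than in wild type cells and at least 8.19-fold higher than in Sox4 cells. These are lower bounds against the 40th percentile of the wild type and Sox4 arrays, because all Mzb1 values there lay below it. The other 9 genes differed by far less: their fold differences lay between 0.762 and 1.28 in K/L versus wild type, between 0.808 and 1.4 in Sox4 versus wild type, and between 0.767 and 1.29 in K/L versus Sox4. In bulk RNA, fewer cells of a type and less RNA per cell cannot be told apart, here and in every result that follows.

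**Figure D1:**
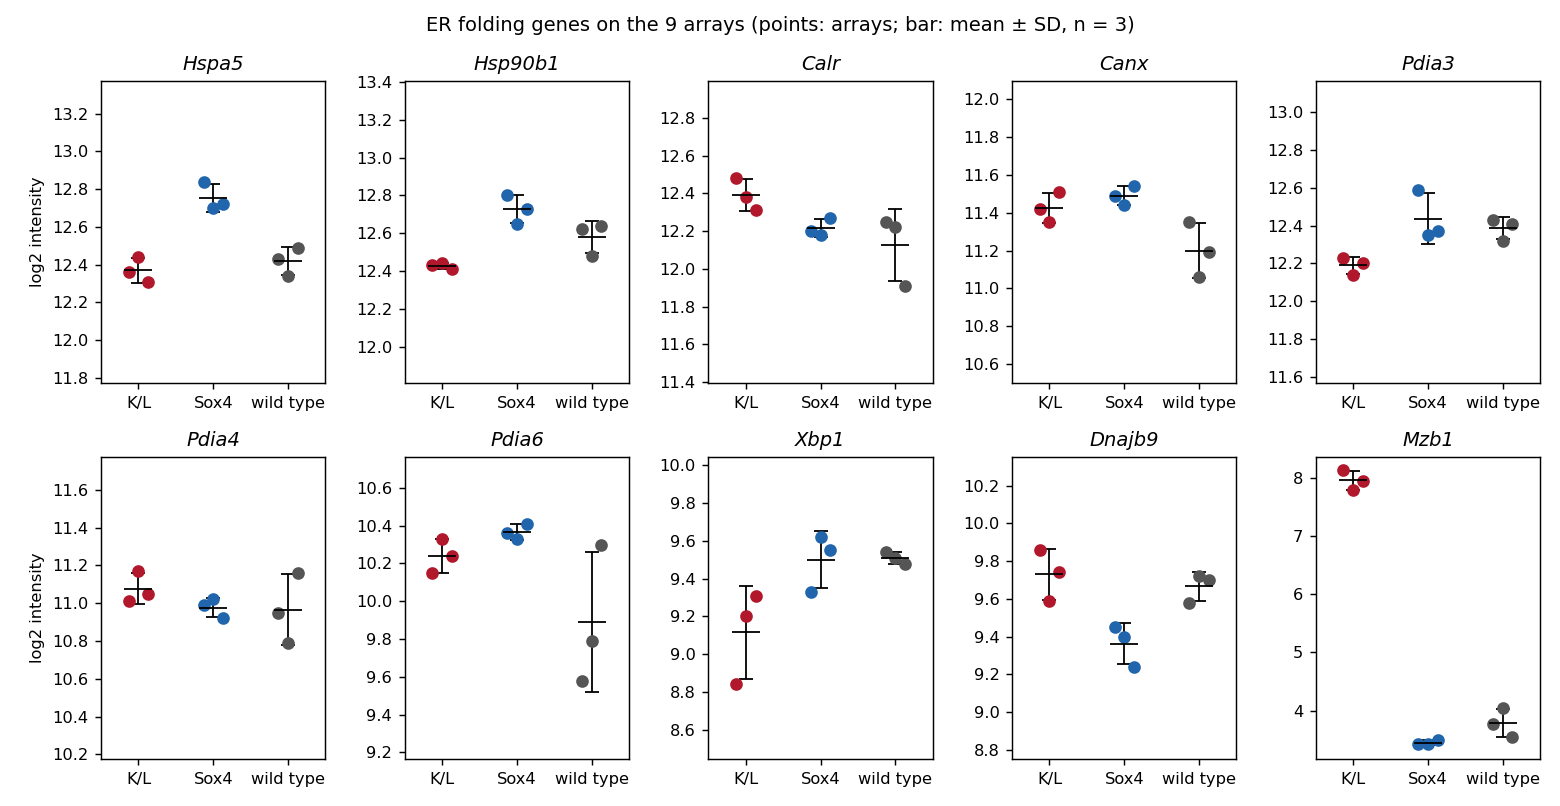
Each panel gives 1 gene, with the log2 intensity of the 9 arrays as points, the groups K/L, Sox4 and wild type from left to right, and a bar at each group mean with its SD. The K/L points of Mzb1 stand between 7.8 and 8.13, above all Sox4 and wild type points, while no group mean of another gene lies more than 0.48 from that gene's wild type mean.

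The counts of ER genes called are read here against those of all genes. At an adjusted p under 0.05 in limma, 50.3% of the 12866 genes differed in K/L versus wild type (28.7% higher, 21.6% lower), and 2 of the 10 ER genes did, Mzb1 higher and Xbp1 lower. In Sox4 versus wild type 47.7% of all genes differed (26.6% higher, 21.1% lower), and 4 of the 10 did, with Hspa5, Canx and Pdia6 higher and Dnajb9 lower. In K/L versus Sox4 28.8% of all genes differed (14.7% higher, 14.1% lower), and 4 of the 10 did, with Mzb1 and Dnajb9 higher and Hspa5 and Hsp90b1 lower. With arrays centred on their medians, 63.4% of the genes called in K/L versus Sox4 were higher in K/L, in place of 51.1%. The median size of the difference was 0.21 over the 10 genes and 0.36 over all genes in K/L versus wild type, 0.22 and 0.34 in Sox4 versus wild type, and 0.27 and 0.22 in K/L versus Sox4. The comparisons share arrays: both leukaemic groups were set against the same 3 wild type arrays. Mzb1 passed the filter on dim genes only through its 3 K/L arrays and so had to differ, and its call is no support for any count, whereas the other 9 genes lay above the 40th percentile on all 9 arrays.

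**Figure D2:**
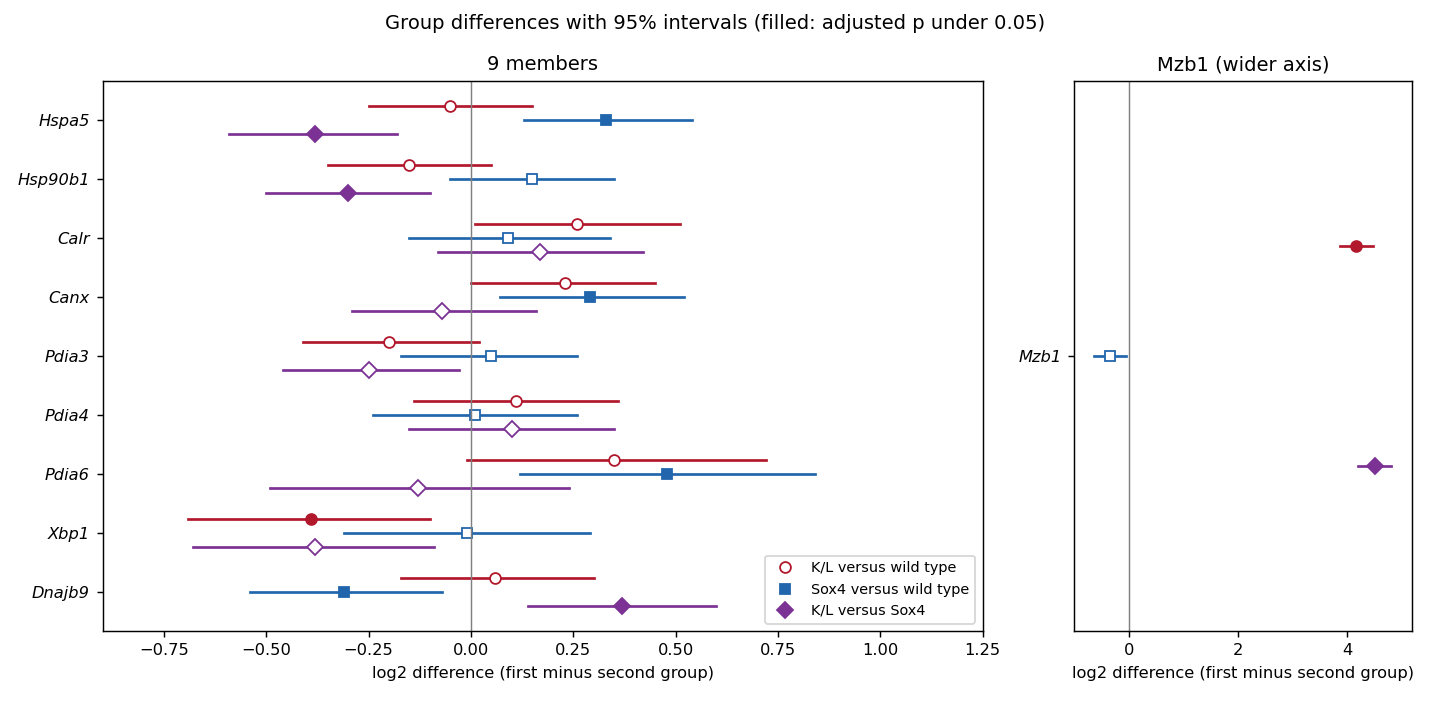
The log2 difference of each gene is drawn with its 95% confidence interval for K/L versus wild type, Sox4 versus wild type and K/L versus Sox4, and filled points have an adjusted p under 0.05. Mzb1 has its own axis because its differences of 4.17 and 4.51 lie far outside the span of -0.39 to 0.48 that holds the other 9 genes.

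Hspa5 encodes BiP, the ER's Hsp70 chaperone, which also holds the stress sensors inactive. It measured 12.36, 12.44 and 12.31 in K/L arrays, 12.84, 12.7 and 12.72 in Sox4 arrays and 12.43, 12.34 and 12.49 in wild type arrays. The 3 Sox4 arrays stood above the other 6, and the K/L and wild type arrays overlapped. Sox4 cells had 1.26-fold the wild type level, a difference of 0.33 ± 0.09 (SE, limma adjusted p = 0.0129). K/L cells differed from Sox4 cells by -0.38 ± 0.09 (limma adjusted p = 0.0108) and from wild type cells by -0.05, with a 95% interval of -0.25 to 0.15. The K/L versus Sox4 call was kept in all 20 alternative settings, while the Sox4 versus wild type call was lost without Sox4 array 1 (0.29, limma adjusted p = 0.0546). Both other Hspa5 probe sets were also higher in Sox4 than in wild type cells, by 0.52 and 0.53 (limma adjusted p = 0.000993 and 0.0205 over all probe sets), and their differences in K/L versus Sox4 were -0.38 and -0.32 (adjusted p = 0.0118 and 0.18).

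Hsp90b1 encodes GRP94, the ER's Hsp90 chaperone, whose clients include integrins and Toll-like receptors. It measured 12.43, 12.44 and 12.41 in K/L arrays, 12.8, 12.65 and 12.73 in Sox4 arrays and 12.62, 12.48 and 12.64 in wild type arrays. The groups did not overlap, and were ordered with Sox4 highest and K/L lowest. The difference passed the test in K/L versus Sox4 (-0.3 ± 0.09, limma adjusted p = 0.0312) and in neither comparison with wild type (-0.15 for K/L and 0.15 for Sox4, adjusted p = 0.187 and 0.205). The K/L versus Sox4 call was lost without K/L array 1, 2 or 3 or Sox4 array 1 or 3 (differences of -0.31 to -0.26, adjusted p of 0.0747 to 0.11), and with arrays centred on their medians (-0.22, adjusted p = 0.0911). The other Hsp90b1 probe set gave larger differences: 11.75, 11.7 and 11.76 in K/L arrays, 12.36, 12.21 and 12.22 in Sox4 arrays and 11.73, 11.74 and 11.82 in wild type arrays. There Sox4 stood above both other groups, by 0.5 against wild type (limma adjusted p = 0.0014), with K/L at -0.53 against Sox4 (adjusted p = 0.00202).

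Dnajb9 encodes ERdj4, a J-domain partner of BiP that helps it repress the sensor Ire1 and deliver misfolded clients for degradation. It measured 9.86, 9.59 and 9.74 in K/L arrays, 9.45, 9.4 and 9.24 in Sox4 arrays and 9.58, 9.72 and 9.7 in wild type arrays. The 3 Sox4 arrays lay below the other 6, the opposite of their place for Hspa5. Dnajb9 was lower in Sox4 than in wild type cells by -0.31 ± 0.1 (limma adjusted p = 0.0343), and higher in K/L than in Sox4 cells by 0.37 ± 0.1 (limma adjusted p = 0.0247). The first of these calls was lost without K/L array 3, Sox4 array 2 or 3 or wild type array 2 or 3 (-0.33 to -0.25, adjusted p of 0.0509 to 0.127), and the second without K/L array 1 or 3 or Sox4 array 2 or 3 (0.31 to 0.39, adjusted p of 0.0548 to 0.0978). K/L and wild type arrays overlapped, with a difference of 0.06 (95% interval -0.17 to 0.3). Dnajb9 has 1 probe set, so no other reading of it was at hand.

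Calreticulin (Calr) and calnexin (Canx) are the soluble and the membrane-bound lectin chaperones that bind monoglucosylated glycoproteins. Calr measured 12.48, 12.38 and 12.31 in K/L arrays, 12.2, 12.18 and 12.27 in Sox4 arrays and 12.25, 12.22 and 11.91 in wild type arrays. All 3 K/L arrays lay above the other 6, but no difference passed the test: 0.26 ± 0.11 in K/L versus wild type (limma adjusted p = 0.0736), 0.09 in Sox4 versus wild type (0.527) and 0.17 in K/L versus Sox4 (0.296). With arrays centred on their medians the K/L versus wild type difference was 0.35 and passed (adjusted p = 0.0192). None of the 3 Calr probe sets was called in any comparison. A known client of both lectins in granulocyte precursors is myeloperoxidase.

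Canx measured 11.42, 11.35 and 11.51 in K/L arrays, 11.49, 11.44 and 11.54 in Sox4 arrays and 11.35, 11.06 and 11.19 in wild type arrays. The Sox4 arrays lay above all wild type arrays and overlapped with K/L. Canx was higher in Sox4 than in wild type cells by 0.29 ± 0.1 (limma adjusted p = 0.0364), and K/L differed from wild type by 0.23 ± 0.1, which did not pass (0.0881). The Sox4 call was lost when K/L array 1, any 1 of the Sox4 arrays or wild type array 2 or 3 was left out (0.22 to 0.32, adjusted p of 0.0517 to 0.109). In K/L versus wild type the call was gained without wild type array 1 (0.3, adjusted p = 0.0377) and with arrays centred on their medians (0.32, adjusted p = 0.024). Another Canx probe set was likewise higher in Sox4 than in wild type cells, by 0.32 (limma adjusted p = 0.0184), and the third was not called.

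The 3 protein disulfide isomerases differed in pattern. Pdia3 (ERp57), which works on glycoproteins bound to Calr and Canx, measured 12.23, 12.14 and 12.2 in K/L arrays, 12.59, 12.35 and 12.37 in Sox4 arrays and 12.43, 12.32 and 12.41 in wild type arrays. The K/L arrays lay below the other 6, yet neither difference passed: -0.2 ± 0.1 against wild type (limma adjusted p = 0.114) and -0.25 ± 0.1 against Sox4 (adjusted p = 0.0833). A second, dimmer Pdia3 probe set was higher in Sox4 than in wild type cells by 0.48 (limma adjusted p = 0.0256), with K/L at -0.62 against Sox4 (adjusted p = 0.0128).

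Pdia4 (ERp72), a larger isomerase found in complexes with BiP, measured 11.01, 11.17 and 11.05 in K/L arrays, 10.99, 11.02 and 10.92 in Sox4 arrays and 10.95, 10.79 and 11.16 in wild type arrays. All 3 groups overlapped. Of the 3 intervals for its differences, the one that reached furthest from 0 ran from -0.14 to 0.36, in K/L versus wild type (0.11, limma adjusted p = 0.438). Its second probe set was too dim to be tested.

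Pdia6 (P5), an isomerase that also acts on the stress sensors Ire1 and Perk, measured 10.15, 10.33 and 10.24 in K/L arrays, 10.36, 10.33 and 10.41 in Sox4 arrays and 9.58, 9.79 and 10.3 in wild type arrays. Wild type array 3 stood near the leukaemic arrays and apart from the other wild type arrays, so the wild type SD was 0.37, against 0.09 in K/L and 0.04 in Sox4. Pdia6 was higher in Sox4 than in wild type cells by 0.48 ± 0.16 (limma adjusted p = 0.0335), and the difference of 0.35 ± 0.16 in K/L versus wild type did not pass (0.0973), but did with arrays centred on their medians (0.45, adjusted p = 0.0449). Without wild type array 3 both differences passed, at 0.56 for K/L (limma adjusted p = 0.00148) and 0.68 for Sox4 (adjusted p = 0.000479), while the Sox4 call was lost without wild type array 1 or 2 or any 1 of the Sox4 arrays (0.33 to 0.5, adjusted p of 0.0665 to 0.111). The second Pdia6 probe set, far dimmer, ran the other way: 5.88, 6.2 and 6.01 in K/L arrays, 5.64, 5.38 and 5.92 in Sox4 arrays and 6.68, 6.71 and 6.71 in wild type arrays. Its differences were -0.67 for K/L and -1.05 for Sox4 (limma adjusted p = 0.00323 and 0.00022), so the direction for Pdia6 depends on the probe set. Over the 9 arrays, the tested genes closest to Pdia6 in array-by-array values centred on each gene's mean were Mtln, Papss1, Nhp2, Otud6b and Fars2, at root mean square distances of 0.07 to 0.09.

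Xbp1 encodes the transcription factor whose spliced form drives chaperone and ER export genes. It measured 8.84, 9.2 and 9.31 in K/L arrays, 9.33, 9.62 and 9.55 in Sox4 arrays and 9.54, 9.51 and 9.48 in wild type arrays. The K/L arrays lay below the other 6 and spread more widely than the other groups (SD 0.24 in K/L, 0.15 in Sox4, 0.03 in wild type). Xbp1 was lower in K/L than in wild type cells by -0.39 ± 0.13 (limma adjusted p = 0.032), and the difference of -0.38 ± 0.13 in K/L versus Sox4 did not pass (0.0564). The K/L versus wild type call was lost without K/L array 1 or wild type array 1 or 2 (-0.39 to -0.25, adjusted p of 0.0649 to 0.117), and with arrays centred on their medians (adjusted p = 0.0937). Without K/L array 3 or Sox4 array 1 the K/L versus Sox4 difference passed (-0.48 and -0.47, adjusted p of 0.0415 and 0.0493). The other 3 Xbp1 probe sets were not called in K/L versus wild type (-0.14, -0.31 and -0.22) and were lower in K/L than in Sox4 cells, by -0.56, -0.59 and -0.49 (limma adjusted p = 0.0181, 0.012 and 0.0481). Sox4 and wild type cells differed by -0.01 on the probe set of highest mean and by 0.41 (adjusted p = 0.0388), 0.28 and 0.27 on the others. Total mRNA is read here, and splicing of Xbp1 was not measured.

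**Figure D3:**
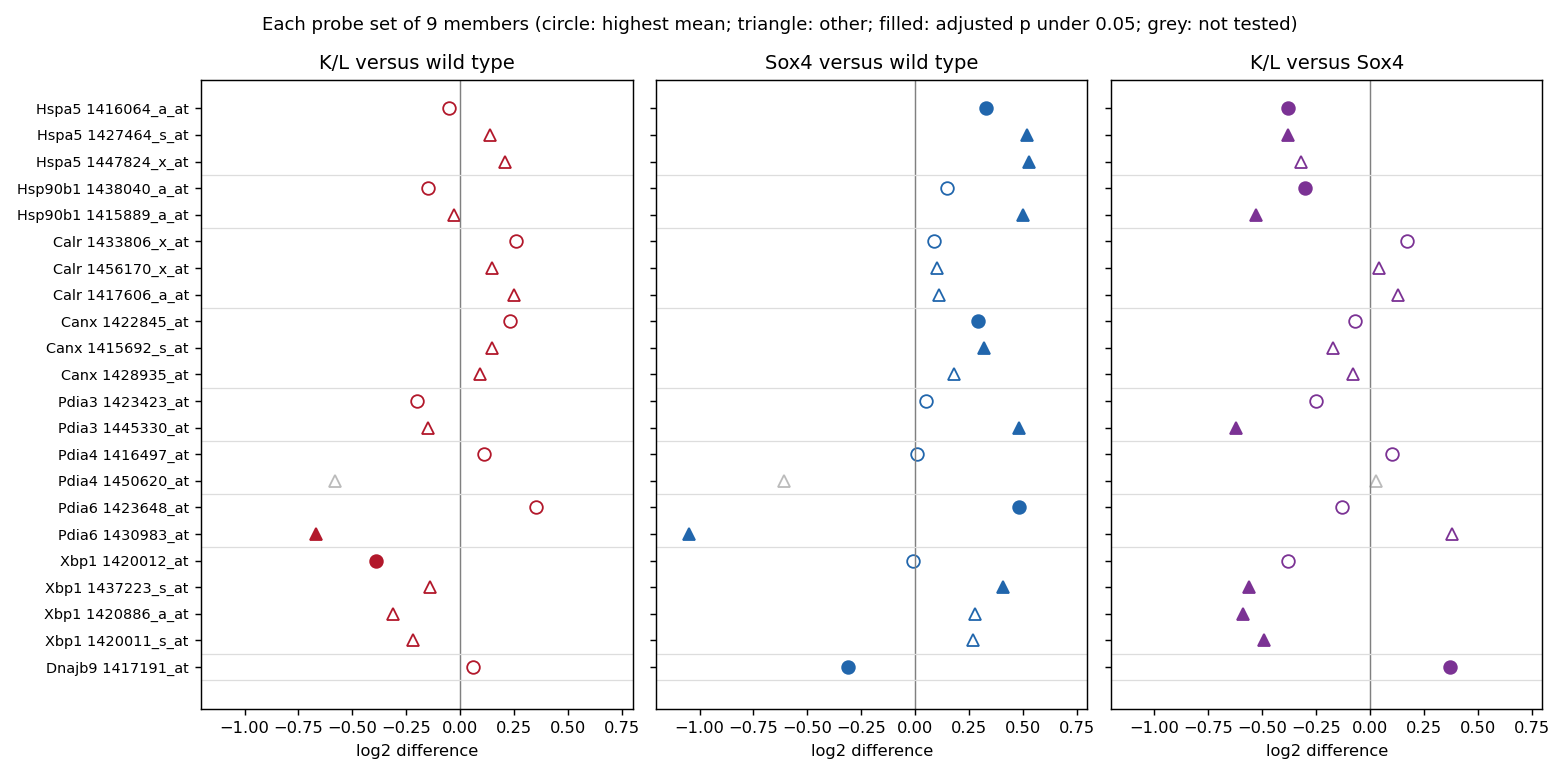
Every probe set of the 9 genes other than Mzb1 is drawn with its log2 difference in the 3 comparisons, filled where the adjusted p over all probe sets is under 0.05. In K/L versus Sox4 every gene with several probe sets, other than Pdia6, has them all on the same side of 0. The 2 of Pdia6 lie on opposite sides in every comparison.

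When each of the 24036 testable probe sets was fitted on its own, 51.3% differed in K/L versus wild type, 48.1% in Sox4 versus wild type and 27.3% in K/L versus Sox4. Of the 22 testable probe sets of these 10 genes, 3 differed in K/L versus wild type, 11 in Sox4 versus wild type and 10 in K/L versus Sox4. Of the 10 that differed between K/L and Sox4, 8 were lower in K/L cells, and they belong to Hspa5, Hsp90b1, Pdia3 and Xbp1. Probe sets of 1 gene read the same RNA and are not replicates.

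Likeness among the 10 genes was measured as the root mean square distance between array values centred on each gene's mean. The closest pair was Hsp90b1 and Pdia3, at 0.06 over the 9 arrays, followed by Hspa5 and Hsp90b1 at 0.08. All 3 genes had their highest group mean in Sox4 cells and their lowest in K/L cells. Dnajb9 lay 0.35 from its partner Hspa5, and Mzb1 lay 1.95 or more from every other gene of the list. These distances share the same 9 arrays and describe them only.

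Mzb1 encodes an ER-resident partner of GRP94 and BiP that is best known from B cells, plasma cells and plasmacytoid dendritic cells, where it aids antibody assembly and secretion. It measured 8.13, 7.8 and 7.95 in K/L arrays, 3.42, 3.43 and 3.5 in Sox4 arrays and 3.77, 4.04 and 3.55 in wild type arrays. All Sox4 and wild type values lay below the 40th percentile of their arrays and close to the floor of 3, so the size of the difference rests on little signal in those groups. The measured difference was 4.17 ± 0.14 in K/L versus wild type (limma adjusted p = 1.61e-08) and 4.51 ± 0.14 in K/L versus Sox4 (limma adjusted p = 1.7e-08). Since the filter let Mzb1 through on its K/L arrays alone, the fit without any filter on dim genes is the one to read, and there the adjusted p was 8.61e-07 in K/L versus wild type and 1.03e-06 in K/L versus Sox4. Sox4 and wild type cells differed by -0.34 ± 0.14, which did not pass (limma adjusted p = 0.0636) and passed without wild type array 3 (-0.46, adjusted p = 0.0129).

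Marker genes of cells that normally express Mzb1 were read beside it. Of 20 B and plasma cell markers, 18 were on the arrays, 10 of them lay below the 40th percentile in all K/L arrays, and their summed linear intensity was 1729 to 1852 on K/L arrays, 1480 to 1750 on Sox4 arrays and 833 to 1138 on wild type arrays. Of the 8 tested, 4 were higher in K/L than in wild type cells (Ighm, Cd79b, Cd79a and Vpreb1) and 0 lower, a share near the 50.3% of all genes called. Of the markers that define plasma cells, Jchain, the joining chain of secreted antibody, averaged 3.45 in K/L, 3.47 in Sox4 and 3.62 in wild type cells, and Pou2af1 was at the floor on all 9 arrays. Sdc1 averaged 5.3 in K/L, 5.52 in Sox4 and 5.58 in wild type cells, Tnfrsf17 averaged 5.23 in K/L, 5.28 in Sox4 and 5.29 in wild type cells, and Prdm1 averaged 4.64 in K/L, 4.49 in Sox4 and 4.73 in wild type cells. Irf4 averaged 4.46 in K/L, 4.53 in Sox4 and 4.39 in wild type cells.

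Ighm, the mu heavy chain, measured 9.53, 9.53 and 9.71 in K/L arrays, 9.43, 9.46 and 9.6 in Sox4 arrays and 7.66, 7.69 and 8.44 in wild type arrays. It was thus higher than in wild type cells in both leukaemic groups, by 1.66 ± 0.19 in K/L and 1.57 ± 0.19 in Sox4 (limma adjusted p = 6.59e-05 and 9.87e-05), whereas Mzb1 was higher in K/L cells alone among the 3 groups. Cd79a, a signalling chain of the B cell receptor, averaged 6.08 in K/L, 4.34 in Sox4 and 4.98 in wild type cells and was higher in K/L than in Sox4 cells by 1.73 ± 0.21 (limma adjusted p = 0.00021). Cd79b, its partner chain, averaged 8.08 in K/L, 8.6 in Sox4 and 6.7 in wild type cells, and was lower in K/L than in Sox4 cells by -0.52 ± 0.11 (limma adjusted p = 0.00712). No single order of the groups was therefore shared by these markers, and their part in the Mzb1 result was not tested.

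Of 17 plasmacytoid dendritic cell markers, 16 were on the arrays, and their sum was 8891 to 9184 on K/L arrays, 11794 to 12378 on Sox4 arrays and 9152 to 9867 on wild type arrays. Plac8 made up most of it, with means of 12.72 in K/L, 12.82 in Sox4 and 12.89 in wild type cells. Of the 15 tested, 7 were higher and 2 lower in K/L versus wild type, 6 higher and 2 lower in Sox4 versus wild type, and 1 higher and 4 lower in K/L versus Sox4. That is 60%, 53.3% and 33.3% called, beside 50.3%, 47.7% and 28.8% of all genes. Bst2 and Lair1 were among those higher in K/L than in wild type cells, by 0.89 and 1.07 (limma adjusted p = 0.000241 and 0.00228). Tcf4, the transcription factor that defines these cells, averaged 4.76 in K/L cells, close to the 40th percentile, with 9.65 in Sox4 and 8.73 in wild type cells. Irf8 averaged 8.24 in K/L, 10.78 in Sox4 and 6.75 in wild type cells. Flt3 averaged 5.41 in K/L, 8.34 in Sox4 and 5.09 in wild type cells. Both were higher in Sox4 than in wild type cells, by 4.03 and 3.24 (limma adjusted p = 3.63e-05 and 1.21e-06). Siglech averaged 5.76 in K/L, 5.65 in Sox4 and 5.82 in wild type cells. The part of these markers in the Mzb1 result was not tested. The sum for mature neutrophil markers was 283 to 411 on K/L arrays, 3494 to 3980 on Sox4 arrays and 15220 to 20572 on wild type arrays, and that for erythroid markers was 1415 to 1664 on K/L arrays, 2000 to 2587 on Sox4 arrays and 2321 to 2691 on wild type arrays. The neutrophil sum moved with all 3 groups and was mostly S100a8 and S100a9 on Sox4 and wild type arrays. Of 6 tested markers, 4 were lower and 0 higher in K/L versus wild type, and 2 higher and 2 lower in Sox4 versus wild type. In K/L versus Sox4 0 were higher and 5 lower. That is 66.7%, 66.7% and 83.3% called, beside 50.3%, 47.7% and 28.8% of all genes. The 2 higher in Sox4 than in wild type cells were Mmp8 and Mmp9, by 0.88 and 0.29 (limma adjusted p = 0.0221 and 0.0405). For Mmp8 the Sox4 and wild type arrays overlapped, and its wild type mean of 4.46 lay below the 40th percentile. The erythroid sum, lower in K/L, overlapped between Sox4 and wild type arrays and was mostly Tfrc, while Klf1 and Ermap were higher in Sox4 than in wild type cells by 1.11 and 1.5 (limma adjusted p = 0.00024 and 5.66e-05). Ermap averaged 4.66 in wild type cells, below the 40th percentile, so its difference rests on little signal there. The part of both lists in the results was not tested.

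**Figure D4:**
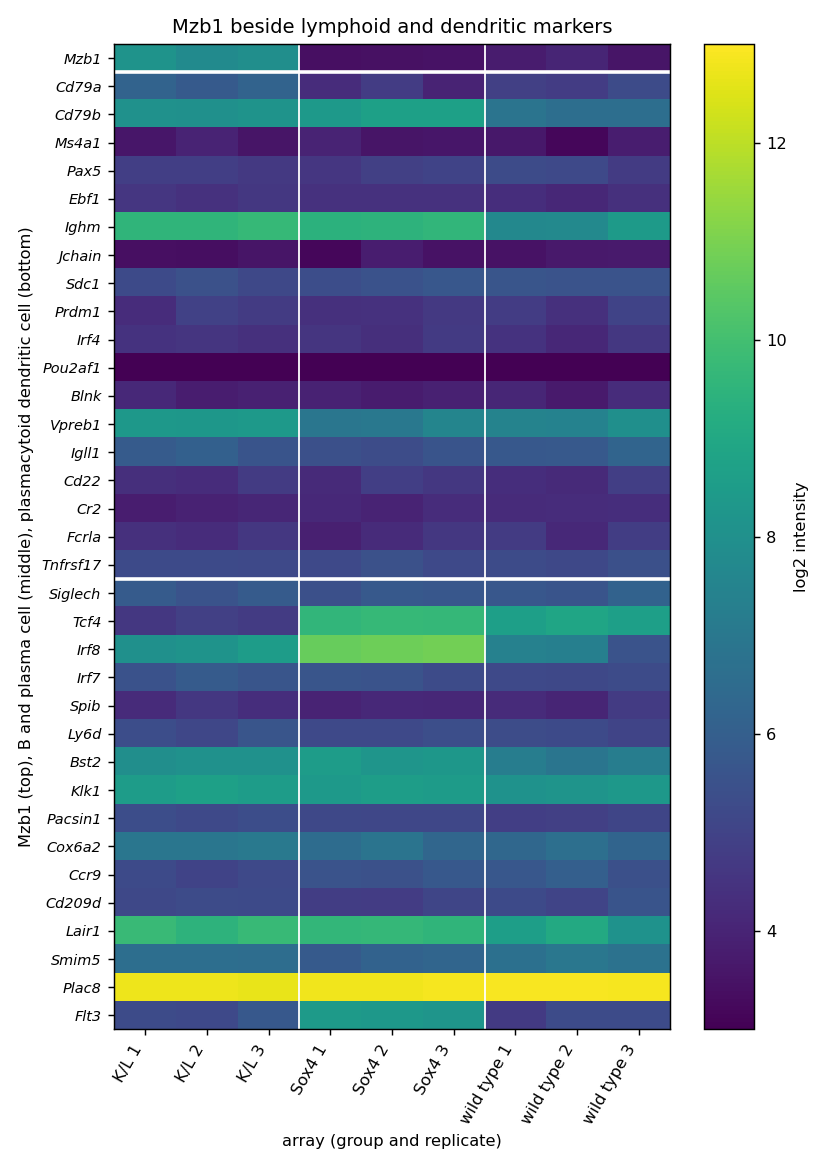
Log2 intensity on the 9 arrays, with the K/L, Sox4 and wild type arrays from left to right, is drawn as shades for Mzb1 and for markers of B and plasma cells and of plasmacytoid dendritic cells. Mzb1 is high on the 3 K/L arrays only, while Ighm is high on all 6 leukaemic arrays and Tcf4 on the Sox4 and wild type arrays.

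The 5 tested genes closest to Mzb1 over the 9 arrays were Dnajb13, Klrb1b, Klra5, Gem and Ccr1, at distances of 0.49 to 0.58 in the same measure. Closeness to the Mzb1 values is what chose them. Klra5, a lectin-like receptor of NK cells, measured 6.24, 6.46 and 6.37 in K/L arrays and was at the floor of 3 on all Sox4 and wild type arrays. Genes next to Mzb1 on the chromosome, looked up after its values were seen, did not share its size of difference: Slc23a1 on one side differed by -1.4 in K/L versus wild type (limma adjusted p = 0.000188) and Spata24 on the other by 0.51 (adjusted p = 0.00463).

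The rest of the folding and secretion pathway was described from 6 lists that hold none of the 10 genes: other ER proteostasis genes, sensors and transducers of the unfolded protein response, ER-associated degradation, translocon and signal peptide genes, N-glycosylation, and COPII and ER export. Of 132 genes listed, 129 were tested. Against wild type, 62 were higher and 12 lower in K/L cells, or 57.4% called, beside 50.3% of all genes. In Sox4 versus wild type 67 were higher and 9 lower (58.9%, beside 47.7% of all genes), and in K/L versus Sox4 8 were higher and 22 lower (23.3%, beside 28.8% of all genes). The median difference was 0.3 in K/L versus wild type and 0.31 in Sox4 versus wild type, beside 0.05 and 0.03 over all genes tested, and -0.09 in K/L versus Sox4, beside 0.03. The lists were chosen with earlier results of these data known. In K/L versus Sox4 the count called over the alternative settings ran from 0 to 4 for the sensors, 2 to 7 for degradation, 0 to 8 for the translocon, 2 to 9 for N-glycosylation and 5 to 12 for export, so those counts are not stable.

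**Figure D5:**
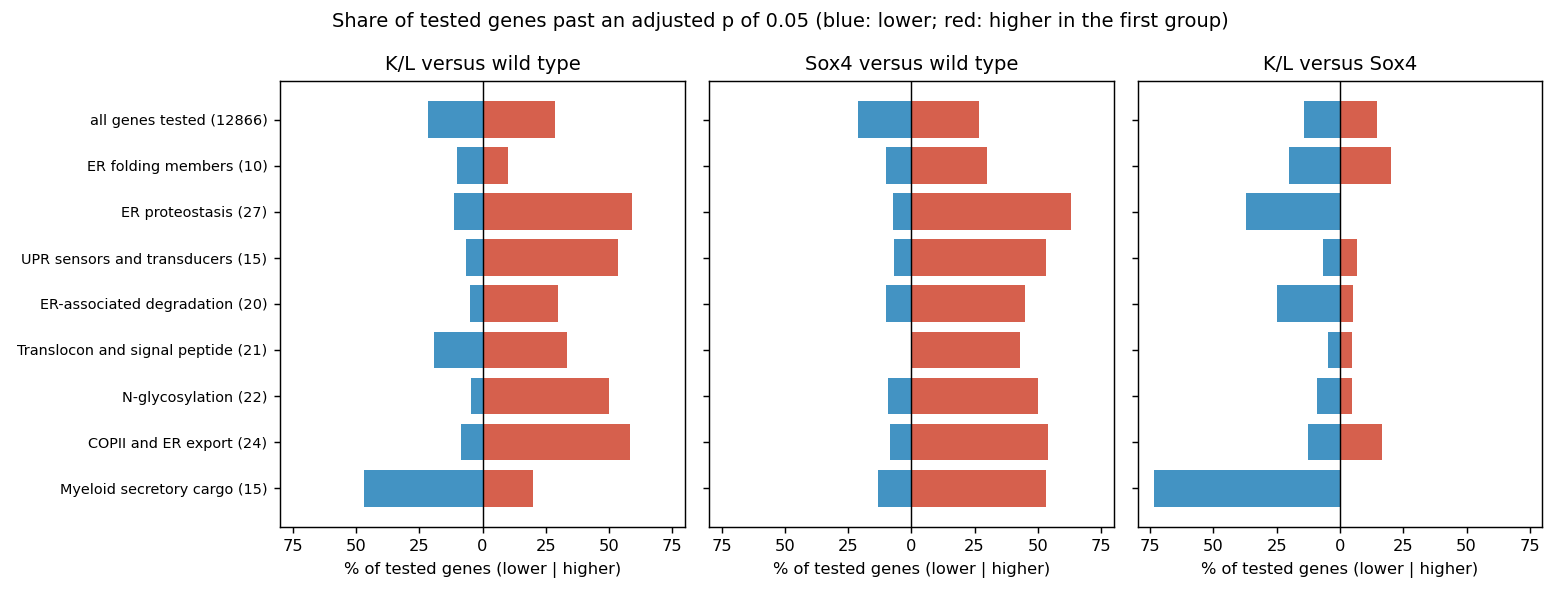
For each list, and for all genes tested, the bars give the percentage of tested genes called higher or lower in each comparison, at a threshold of 0.05 in limma. In both comparisons with wild type most called genes of the 6 pathway lists are higher, and in K/L versus Sox4 all 10 ER proteostasis genes called in this fit are lower, which some alternative settings changed.

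Other ER proteostasis genes were called in 70.4% in both comparisons with wild type and in 37% in K/L versus Sox4. Over all genes the share was 50.3% in K/L versus wild type, 47.7% in Sox4 versus wild type and 28.8% in K/L versus Sox4. Of 27 tested, 16 were higher and 3 lower in K/L versus wild type, 17 higher and 2 lower in Sox4 versus wild type, and 0 higher and 10 lower in K/L versus Sox4. Over the alternative settings the count called in K/L versus Sox4 ran from 8 to 14. The mean of all probe sets gave 2 higher and 11 lower there, and the second probe set 1 higher and 9 lower. With only the groups compared it was 1 higher and 13 lower. Pdia5, another disulfide isomerase, averaged 8.56 ± 0.06 in K/L, 8.79 ± 0.03 in Sox4 and 6.06 ± 0.12 in wild type cells (SD, n = 3 each). Pdia5 was thus higher than in wild type cells by 2.5 in K/L and 2.74 in Sox4 (limma adjusted p = 4.2e-08 and 4.28e-08), where Pdia3 and Pdia4 did not pass. Prdx4, the ER peroxiredoxin that uses peroxide to form disulfides, averaged 7.25 ± 0.36 in K/L, 8.5 ± 0.06 in Sox4 and 4.74 ± 0.1 in wild type cells (SD, n = 3 each). It was higher by 2.5 ± 0.16 in K/L and 3.75 ± 0.16 in Sox4 versus wild type, and differed by -1.25 ± 0.16 in K/L versus Sox4 (limma adjusted p = 1.49e-06, 1.29e-07 and 0.000273). The wild type mean of Prdx4 lay below the 40th percentile of the wild type arrays, which was 4.93 to 4.95. Prdx4 thus passed the filter only through leukaemic arrays, and its 2 calls against wild type are no support for any count. Sdf2l1, a partner of BiP, was higher in Sox4 than in wild type cells by 1.87 ± 0.09 and lower in K/L than in Sox4 cells by -0.76 ± 0.09 (limma adjusted p = 3.56e-07 and 0.0002). Serpinh1, the collagen chaperone, was lower in both leukaemic groups than in wild type cells, by -3.19 in K/L and -3.24 in Sox4 (limma adjusted p = 8.67e-07 and 8.93e-07), and its leukaemic values lay near the floor. Serpinh1 passed the filter only through its wild type arrays and so had to differ, and its calls are no support for any count.

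Among 15 sensors and transducers of the unfolded protein response, 8 were higher and 1 lower in K/L versus wild type, and 8 higher and 1 lower in Sox4 versus wild type. That is 60% called in each, beside 50.3% of all genes in K/L versus wild type and 47.7% in Sox4 versus wild type. In K/L versus Sox4 13.3% were called, beside 28.8% of all genes. Between K/L and Sox4 cells 1 was higher, Eif2ak3, which encodes the sensor Perk (0.47 ± 0.15, limma adjusted p = 0.0438), and 1 lower, Atf6 (-0.41 ± 0.12, limma adjusted p = 0.0319). Atf6 averaged 9.1 in K/L, 9.52 in Sox4 and 8.7 in wild type cells. Creb3l2, a membrane-bound relative of Atf6 that drives secretory genes, was higher by 2.04 ± 0.11 in K/L and 2.27 ± 0.11 in Sox4 versus wild type (limma adjusted p = 6.35e-07 and 4.04e-07). Mbtps2, the protease that releases Atf6 from the membrane, was lower by -0.6 in K/L and -0.73 in Sox4 (limma adjusted p = 0.000741 and 0.000229).

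The share called was 35% in K/L versus wild type, 55% in Sox4 versus wild type and 30% in K/L versus Sox4 for ER-associated degradation. Over all genes the shares were 50.3%, 47.7% and 28.8% in the same order. Of the 20 tested degradation genes, 6 were higher and 1 lower in K/L versus wild type, 9 higher and 2 lower in Sox4 versus wild type, and 1 higher and 5 lower in K/L versus Sox4. Ube2j1, an ER ubiquitin-conjugating enzyme, averaged 8.57 in K/L, 9.4 in Sox4 and 8.35 in wild type cells, and its difference was 1.05 ± 0.12 in Sox4 versus wild type (limma adjusted p = 6.22e-05). Edem1, a mannosidase-like protein that targets glycoproteins for degradation, averaged 11.17 in K/L, 10.72 in Sox4 and 11.36 in wild type cells. It was lower in Sox4 than in wild type cells by -0.64 ± 0.11 (limma adjusted p = 0.000962), the same side as Dnajb9.

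The entry and exit of the ER were described likewise. Over all genes 50.3% were called in K/L versus wild type, 47.7% in Sox4 versus wild type and 28.8% in K/L versus Sox4. In the same order the shares were 52.4%, 42.9% and 9.52% for the translocon list. They were 54.5%, 59.1% and 13.6% for N-glycosylation, and 66.7%, 62.5% and 29.2% for COPII and ER export. Of 21 translocon and signal peptide genes, 7 were higher and 4 lower in K/L versus wild type, 9 higher and 0 lower in Sox4 versus wild type, and 1 higher and 1 lower in K/L versus Sox4. The balance in K/L versus wild type turned to 3 higher and 6 lower when all probe sets of a gene were averaged, and to 4 higher and 5 lower with the second probe set. Without Sox4 array 2 or 3 the Sox4 versus wild type count was 5. Srp68, a subunit of the signal recognition particle, was higher by 1.15 ± 0.09 in K/L and 0.78 ± 0.09 in Sox4 versus wild type (limma adjusted p = 7.72e-06 and 9.91e-05). Of 22 N-glycosylation genes, 11 were higher and 1 lower in K/L versus wild type, 11 higher and 2 lower in Sox4 versus wild type, and 1 higher and 2 lower in K/L versus Sox4. Mogs, the glucosidase whose trimming starts the path to Calr and Canx, was higher by 1.44 ± 0.1 in K/L and 1.69 ± 0.1 in Sox4 (limma adjusted p = 2.67e-06 and 9.75e-07). Of 24 genes of COPII and ER export, 14 were higher and 2 lower in K/L versus wild type, 13 higher and 2 lower in Sox4 versus wild type, and 4 higher and 3 lower in K/L versus Sox4, where 4 higher and 5 lower were called after quantile normalization. Sec24d, a cargo adaptor of COPII coats, averaged 7.26 in K/L, 9.21 in Sox4 and 6.26 in wild type cells and was higher in Sox4 than in wild type cells by 2.95 ± 0.13 (limma adjusted p = 1.29e-07).

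Secretory cargo of myeloid cells was set beside the chaperones. The share called was 66.7% in both comparisons with wild type and 73.3% in K/L versus Sox4. Over all genes it was 50.3% in K/L versus wild type, 47.7% in Sox4 versus wild type and 28.8% in K/L versus Sox4. Of 15 tested genes, 3 were higher and 7 lower in K/L versus wild type, 8 higher and 2 lower in Sox4 versus wild type, and 0 higher and 11 lower in K/L versus Sox4. Elane, neutrophil elastase, averaged 8.8 ± 0.24 in K/L, 13.12 ± 0.01 in Sox4 and 12.85 ± 0.32 in wild type cells (SD, n = 3 each), a difference of -4.32 ± 0.17 in K/L versus Sox4 (limma adjusted p = 1.11e-07). Prg2, the major basic protein of eosinophil granules, averaged 9.43 in Sox4 and 4.98 in wild type cells, a difference of 4.44 ± 0.25 (limma adjusted p = 7.81e-07). Elane and Hspa5 were thus both lower in K/L than in Sox4 cells. In K/L versus wild type Elane differed by -4.04 and Hspa5 by -0.05 (limma adjusted p = 8.96e-08 and 0.674). Hspa5 was higher by 0.33 in Sox4 than in wild type cells, where Elane averaged 13.12 and 12.85. A relation between Elane and Hspa5 was not tested.

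The genes that hold a complete ERSE were compared side by side. For K/L versus wild type the differences were -0.05 for Hspa5, -0.15 for Hsp90b1, 0.26 for Calr, 0.23 for Canx and 0.35 for Pdia6, and none passed the test, beside 50.3% of all genes. In Sox4 versus wild type the differences were 0.33 for Hspa5, 0.15 for Hsp90b1, 0.09 for Calr, 0.29 for Canx and 0.48 for Pdia6, of which Hspa5, Canx and Pdia6 passed the test. Over all genes 47.7% passed there, and the second Pdia6 probe set ran the other way. Outside the 10 genes, the element stood in the windows of Dnajc3, Creld2, Ero1b, Syvn1 and Derl3, which are given because they hold it. Dnajc3, a BiP co-chaperone, was higher by 0.71 in K/L and 1.3 in Sox4 versus wild type (limma adjusted p = 0.000221 and 4.95e-06). Creld2, a stress-induced ER protein, differed by 1.04 in Sox4 versus wild type (limma adjusted p = 0.000113) and by 0.26 in K/L versus wild type (0.122). Ero1b, the oxidase that recharges disulfide isomerases, was lower in K/L than in wild type cells by -0.98 (limma adjusted p = 1.35e-05) and differed by -0.08 in Sox4 versus wild type (0.462). Dnajc3, Creld2 and Ero1b were each lower in K/L than in Sox4 cells, by -0.58, -0.79 and -0.9 (limma adjusted p = 0.00149, 0.00128 and 4.37e-05). Hspa5 and Hsp90b1 also passed in K/L versus Sox4, at -0.38 and -0.3. Calr (0.17), Canx (-0.07), Pdia6 (-0.13) and Syvn1 (-0.2) did not (limma adjusted p = 0.296, 0.683, 0.618 and 0.575). Over all genes 28.8% passed in that comparison. Syvn1, the degradation ubiquitin ligase, was higher in both leukaemic groups versus wild type, by 0.94 in K/L and 1.15 in Sox4 (limma adjusted p = 0.00681 and 0.00243), and Derl3 passed in no comparison.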

How the data were processed

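Total RNA of sorted cells was labelled as biotin cRNA and hybridised to 9 Affymetrix mouse arrays, 3 a group, per the labels' protocols. The deposited table holds the authors' linear intensity of 45101 probe sets, from a floor of 8 to 22474.538. Per the submitters' processing notes the authors used RMA; its version is not given in the sources used here. Values were log2 transformed and kept at the deposited scaling. Gene names came from a platform annotation of 2016, in which 34958 probe sets had 1 symbol, 932 several and 9211 none, and only those with 1 symbol were used. Each gene was represented by its probe set of highest mean and tested if at least 3 arrays lay above their 40th percentile. One limma 3.58.1 fit (lmFit and eBayes, R 4.3.3) of all 9 arrays, with the group as its only term, left 6 residual and 3.64 prior degrees of freedom. P-values are two-sided and adjusted by the Benjamini-Hochberg method over all tested genes with 0.05 as the threshold. An exact permutation test of 3 against 3 arrays cannot go below 0.1, so none is given. The number of arrays limits the precision.

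The 10 genes, all lists and the tests were chosen with earlier results of these data known. Named genes are the 10 genes with all their probe sets, genes of each list taken from the 4 of smallest p per comparison, the 5 genes most like each of the members with the widest range of group means, Mzb1 and Pdia6, genes with the ERSE, and defining cell type markers. The alternatives changed the filter, the scaling, the probe set, the variance model and the arrays used, and the choice of second probe set and of avoiding _x_at probe sets was added after seeing the data. Scripts were tested on simulated data.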

Additional observations from a re-analysis of the deposited data

Results flagged for a closer look

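The changes of 4 genes from the shared wild type arrays differed between the leukaemic groups, by the test of K/L versus Sox4 itself. For Mzb1 the change from wild type was 4.17 in K/L and -0.34 in Sox4, which differ by 4.51, but Mzb1 was tested only through its K/L arrays and its Sox4 and wild type values lay near the floor. For Hspa5 the change was -0.05 in K/L and 0.33 in Sox4, which differ by -0.38 (limma adjusted p = 0.0108). For Hsp90b1 the change was -0.15 in K/L and 0.15 in Sox4, which differ by -0.3 (limma adjusted p = 0.0312), a call that was lost without any 1 of 5 arrays and with arrays centred on their medians (-0.22, limma adjusted p = 0.0911). For Dnajb9 the change was 0.06 in K/L and -0.31 in Sox4, which differ by 0.37 (limma adjusted p = 0.0247), lost without any 1 of 4 arrays.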

How the results depend on the processing

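Each of the 30 differences was recomputed under 20 alternatives, 597 values in all because the second Pdia4 probe set was not testable. Of these, 506 kept their direction and their side of the threshold, 40 lost the call, 28 gained it and 23 changed sign. In K/L versus wild type the count of genes called, 2 of 10, was 4 with arrays centred on their medians, 6 with a trended and robust variance, 1 when only the groups compared were fitted, and 1 to 3 without 1 array. In Sox4 versus wild type the count, 4 of 10, was 1 when only the groups compared were fitted, 7 with the probe set of second highest mean, and 1 to 4 without 1 array. In K/L versus Sox4 the count, 4 of 10, was 6 with the mean of all probe sets, the second probe set, a trended and robust variance or array weights, 5 with the stricter filter, 3 with arrays centred on their medians, and 2 to 4 without 1 array. The mean of all probe sets turned the sign in K/L versus wild type for Hspa5 (0.1), Pdia4 (-0.23) and Pdia6 (-0.16), in Sox4 versus wild type for Pdia4 (-0.3), Pdia6 (-0.29) and Xbp1 (0.24), and in K/L versus Sox4 for Pdia6 (0.13). The second probe set turned Hspa5 (0.14) and Pdia6 (-0.67) in K/L versus wild type, Pdia6 (-1.05) and Xbp1 (0.41) in Sox4 versus wild type and Pdia6 (0.38) in K/L versus Sox4. Median centring turned Hspa5 in K/L versus wild type (0.04), Xbp1 in Sox4 versus wild type (0.0) and Canx in K/L versus Sox4 (0.01), and quantile normalization turned Xbp1 in Sox4 versus wild type (0.01). Without 1 array, Dnajb9 ranged from 0.0 to 0.13 in K/L versus wild type, and in Sox4 versus wild type Calr from -0.02 to 0.15, Pdia3 from -0.03 to 0.09, Pdia4 from -0.08 to 0.11 and Xbp1 from -0.07 to 0.08. The cause of these changes was not tested. Same-numbered samples of different groups showed little sign of deviating together (correlations of -0.02 to 0.08, and 0 of 9 pairs over 0.1). Samples of different numbers gave -0.05 to 0.05. With so few arrays this cannot settle whether the numbers pair the samples. With the replicate number as a block, 2, 3 and 4 of the 10 genes were called in the 3 comparisons, and Dnajb9 in Sox4 versus wild type stood at -0.31 (limma adjusted p = 0.0586). Avoiding _x_at probe sets changed 0 of the 30 calls. Signal near the floor limits the values of Mzb1 in Sox4 and wild type arrays and of the dimmer probe sets.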
